A study of Mus musculus with 6 samples.

Results

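Krüppel-like factors (KLFs) are a family of transcription factors that share a C-terminal DNA-binding domain of C2H2 zinc fingers. Of the family, 10 genes are described here, Klf2, Klf3, Klf4, Klf5, Klf6, Klf7, Klf9, Klf10, Klf11 and Klf13, out of 22180 genes measured. Each was taken by its symbol from the probe sets that the array annotation gives exactly 1 gene. All 10 were measured, and all 10 entered every test unless a setting is named that removed genes. Klf7 had 2 such probe sets and was read from the brighter one, and the other 9 genes had 1 each.

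The cells came from mouse gliomas and are labelled tumor-associated endothelial cells. Magnetic beads with an antibody to CD105 (endoglin) were used to take them from the tumors, and glioma-conditioned medium was then applied to them for 12 h. The Tie2-Cre group held 3 mice (1, 3 and 4) of the genotype Tie2-Cre,Pfn1fl/fl:Y129F. The no Cre group held 3 mice (6, 7 and 10) of the genotype Pfn1fl/fl:Y129F, with no Cre. These titles name floxed Pfn1 on both alleles and a Y129F form of Pfn1, but not how Y129F relates to the floxed alleles. Total RNA of each mouse was read on 1 Affymetrix Mouse Gene 2.0 ST array. Tie2-Cre drives recombination from the promoter of Tek (Tie2), which is active in endothelial cells and in part of the blood lineage. Neither the ages of the mice nor the outcome of recombination at these alleles is stated in the labels. The question of the series is the part that phosphorylation of the actin regulator profilin-1 (Pfn1) plays in the expression of genes there.

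KLF proteins bind GC-rich DNA, in CACCC boxes and in GC boxes, and most of them can raise some genes and lower others. They are usually sorted by their partners: Klf3, Klf8 and Klf12 recruit the corepressor CtBP; Klf1, Klf2, Klf4, Klf5, Klf6 and Klf7 mostly work with acetyltransferases such as p300; Klf9, Klf10, Klf11, Klf13, Klf14 and Klf16 bind the Sin3A corepressor. In endothelium, Klf2 and Klf4 are best known. Laminar flow induces both through the kinases MEK5 and ERK5 and the MEF2 factors, and they restrain clotting and leukocyte adhesion.

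Several facts of the whole series touch every value below. Pfn1 had log2 intensities of 12.41, 12.41 and 12.42 on the Tie2-Cre arrays and 12.38, 12.34 and 12.39 on the no Cre arrays, a change of 0.04 (SE 0.062, limma adjusted p 0.776). The exact two-sided permutation test gave p = 0.1 for Pfn1, the smallest p that 3 mice against 3 can give. The probe set does not separate the Y129F form from the unchanged gene. Xist, which coats and silences an X chromosome in females, had 5.36 to 6.06 on the Tie2-Cre arrays and 11.16 to 11.44 on the no Cre arrays, and the Y-linked genes Uty, Eif2s3y and Kdm5d were higher with Tie2-Cre, so sex and genotype cannot be told apart. Of 10 endothelial markers, 9 had a mean log2 intensity under the median of all genes (7.12), none is at 0 on this scale, and limma called 0 of them (0 higher and 1 lower at an unadjusted p under 0.05). Their summed linear intensity was 724 to 785 with Tie2-Cre and 770 to 795 without Cre. Markers of pericytes and smooth muscle passed in 5 of 10, all higher, with sums of 30223 to 36239 with Tie2-Cre and 21484 to 22924 without Cre. That count was 3 when Tie2-Cre mouse 1 or any of the no Cre mice (6, 7 or 10) was left out or with the probe sets that lack 1 symbol added, and 6 without Tie2-Cre mouse 4. Fibroblast markers passed in 5 of 8 (4 higher, 1 lower), with sums of 18082 to 20960 with Tie2-Cre and 17660 to 17806 without Cre. Single fibroblast markers moved far more than these sums: Dpt (3.54), Postn (2.36), Pdgfra (1.65) and Lum (1.27) were higher, and Dcn (-0.76) was lower. Macrophage markers were lower in 3 of 10 (1003 to 1041 with Tie2-Cre, 1284 to 1384 without Cre) and mesothelial markers in 3 of 8 (1318 to 1506 with Tie2-Cre, 3338 to 3714 without Cre). The mesothelial 3 were Upk1b (-3.29), Upk3b (-1.36) and Krt19 (-0.42), and the other 5 did not pass. Krt19 lost its call when any mouse except no Cre mouse 7 was left out, and with the probe sets that lack 1 symbol added. Of 6 astrocyte and glioma markers 2 were higher, Nes (0.59) and S100b (0.57), and only Nes without Tie2-Cre mouse 3. The sums of the 6 were 836 to 870 with Tie2-Cre and 632 to 684 without Cre. The other 4, Gfap, Olig2, Sox2 and Aqp4, differed by -0.13 to 0.08 and did not pass. These 4 had a mean log2 intensity under the median of all genes. The part of these cell types in the KLF results was not tested, and in such bulk RNA fewer cells of a type and less RNA per cell cannot be told apart.

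The KLF genes did not move as a block. With Tie2-Cre, Klf6, Klf3 and Klf13 rose, by 0.61, 0.42 and 0.39 on the log2 scale, and 7 of the 10 did not pass the threshold of a limma adjusted p under 0.05. No member was lower past it. At an unadjusted p under 0.05, 5 were higher and 1 was lower. The share called higher, 3 of 10, stands beside 4.78% of all 22180 genes called higher, 7.17% called lower and 12.0% called in either direction. The median change was 0.18 over the 10 genes and -0.0042 over all genes. The 3 arrays of 1 group lay wholly beyond the 3 of the other in 7 of the 10, against 31.0% of all genes. The count of higher members changed with the mice and settings used. With a mouse left out, fewer arrays entered the fit, and 634 to 903 of all genes were called higher, against 1061 with all arrays. The member count was 1, Klf6, when Tie2-Cre mouse 4 or any of the no Cre mice (6, 7 or 10) was left out, and also with the probe sets that lack 1 symbol added to the test. It was 2 without Tie2-Cre mouse 1 or 3. It was 4, with Klf9, under a minimum mean log2 of 5, a repeated quantile normalization or the trended, robust eBayes.

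**Figure D1:**
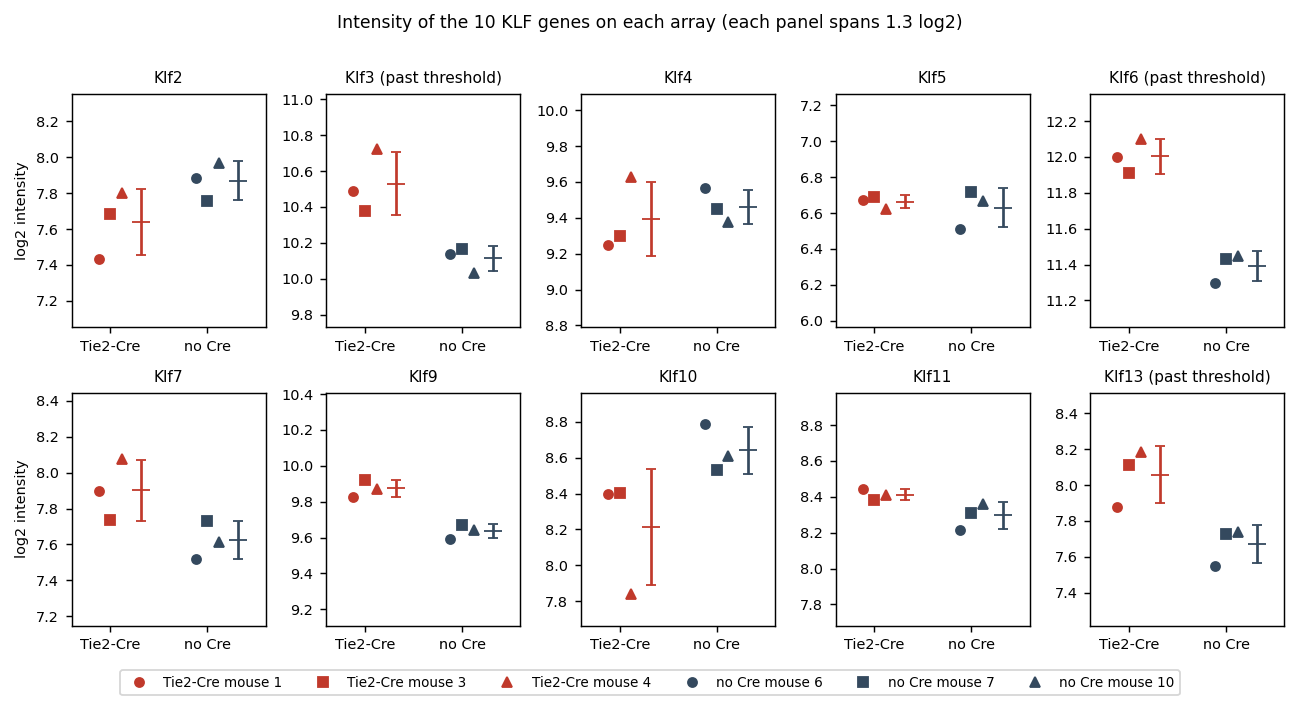
Log2 intensity of each of the 10 KLF genes (vertical axis, 1.3 log2 in every panel) on the 3 Tie2-Cre arrays (red) and the 3 no Cre arrays (dark), with a marker for each mouse and a bar for the mean and SD (n = 3 each). The Tie2-Cre points of Klf6 lie between 11.91 and 12.10, above the no Cre points at 11.30 to 11.45, while those of Klf4 and Klf5 overlap.

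The 250 bases before the RefSeq start of the 3 genes that rose are printed here, because their own control regions can hold the letters that KLF proteins bind. Capitals mark each CACCC box (CACCC, or GGGTG on the other strand) and each GC box (GGGCGG, or CCGCCC on the other strand), and the 2 kinds may overlap. Coordinates and sequences are RefSeq's on GRCm38.p6, with Klf6 at chr13:5861239-5861488 (plus strand), Klf3 at chr5:64803271-64803520 (plus strand) and Klf13 at chr7:63938916-63939165 (minus strand).
Klf6: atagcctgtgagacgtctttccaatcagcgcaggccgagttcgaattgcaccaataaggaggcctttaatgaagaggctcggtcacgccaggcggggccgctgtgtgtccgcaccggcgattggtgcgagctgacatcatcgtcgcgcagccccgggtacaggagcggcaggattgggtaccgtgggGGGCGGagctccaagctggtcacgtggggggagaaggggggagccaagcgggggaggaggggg
Klf3: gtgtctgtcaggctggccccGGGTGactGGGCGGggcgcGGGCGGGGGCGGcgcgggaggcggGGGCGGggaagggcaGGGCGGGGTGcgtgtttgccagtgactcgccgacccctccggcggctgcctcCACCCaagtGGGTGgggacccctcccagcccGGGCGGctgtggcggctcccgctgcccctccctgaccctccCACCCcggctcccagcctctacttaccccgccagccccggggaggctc
Klf13: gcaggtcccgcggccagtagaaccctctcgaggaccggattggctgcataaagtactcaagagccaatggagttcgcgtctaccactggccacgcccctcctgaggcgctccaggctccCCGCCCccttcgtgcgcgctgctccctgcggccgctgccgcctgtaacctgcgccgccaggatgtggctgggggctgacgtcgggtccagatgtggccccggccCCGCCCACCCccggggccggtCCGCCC
The Klf3 window holds 5 CACCC boxes and 6 GC boxes, that of Klf13 holds 1 and 3, and that of Klf6 holds 0 and 1. A CACCC box was found in 52% of the 32851 RefSeq windows of this length and a GC box in 32.7%. Windows were found for 8 of the 10 members, of which 5 hold a CACCC box and 7 a GC box. A match of letters is a description of the window and says nothing of binding in these cells.

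Klf6 showed the largest rise of the family. It is an early-response factor that, in endothelial cells, has been tied to vessel repair and to the TGF-beta receptor genes. Its log2 intensity was 12.00, 11.91 and 12.10 on the Tie2-Cre arrays of mice 1, 3 and 4, against 11.30, 11.43 and 11.45 on the no Cre arrays of mice 6, 7 and 10. The groups were parted by a gap wider than the spread within either of them. The change was 0.61 (SE 0.080, 95% interval 0.43 to 0.79), or 1.53-fold on the linear scale, with a limma adjusted p of 0.00234. Klf6 alone among the members kept its call under all 12 alternatives, with changes of 0.56 to 0.66 and adjusted p-values of 5.36e-05 to 0.0125.

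Klf7, the closest relative of Klf6 and known from neurons and fat cells, had 7.90, 7.74 and 8.07 on the Tie2-Cre arrays and 7.52, 7.73 and 7.62 on the no Cre arrays. The lowest Tie2-Cre array and the highest no Cre array were almost level. Its change of 0.28 (SE 0.10, limma adjusted p 0.13) did not pass. The second Klf7 probe set was dim, at 4.46 to 4.69 with Tie2-Cre and 4.60 to 4.76 without Cre, and differed by -0.09. With the mean of both probe sets the Klf7 change was 0.096.

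Klf2 and Klf4, the flow-responsive factors of endothelium, and Klf5, a growth-linked factor of epithelium and smooth muscle, showed no change past the threshold. Klf2 had 7.44, 7.68 and 7.80 on the Tie2-Cre arrays, against 7.89, 7.76 and 7.97 on the no Cre arrays, so that the groups overlapped. The Klf2 difference was -0.23 (SE 0.11, limma adjusted p 0.232) with a 95% interval of -0.48 to 0.02, and -0.13 (adjusted p 0.489) without Tie2-Cre mouse 1. Klf4 had 9.25, 9.30 and 9.63 on the Tie2-Cre arrays and 9.56, 9.45 and 9.37 on the no Cre arrays. Tie2-Cre mouse 4 lay above all no Cre mice in Klf4 while the other Tie2-Cre mice lay below them. Its difference was -0.07, with an interval of -0.33 to 0.19. Klf5 was the only member whose probe set was dimmer than the median of all genes. It had 6.67, 6.69 and 6.62 on the Tie2-Cre arrays and 6.51, 6.72 and 6.67 on the no Cre arrays. The Klf5 difference was 0.03, with an interval of -0.14 to 0.21.

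Klf3 represses genes through CtBP and is known from fat, B cells and red cells. It had 10.49, 10.38 and 10.72 on the Tie2-Cre arrays, against 10.14, 10.17 and 10.03 on the no Cre arrays. All 3 Tie2-Cre arrays lay above the no Cre arrays, and mouse 4 was the highest. The change was 0.42 (SE 0.098, 95% interval 0.19 to 0.64), 1.34-fold on the linear scale, with a limma adjusted p of 0.0304. Leaving out Tie2-Cre mouse 1 or 4, or 1 of the no Cre mice (6, 7 or 10), ended the Klf3 call (adjusted p 0.0561 to 0.105), as did the added probe sets (0.0825). With 1 of those mice left out the Klf3 change was 0.32 to 0.44.

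The members that bind Sin3A differed among themselves. Klf13, which in human T cells was found as an activator of CCL5, had 7.88, 8.11 and 8.18 on the Tie2-Cre arrays and 7.55, 7.73 and 7.74 on the no Cre arrays. The groups did not overlap, with mouse 1 the lowest of the Tie2-Cre arrays. The Klf13 change was 0.39 (SE 0.099, 95% interval 0.16 to 0.62), 1.31-fold, with a limma adjusted p of 0.0426. Leaving out Tie2-Cre mouse 3 or 4, or 1 of the no Cre mice, ended its call (adjusted p 0.0829 to 0.132), and so did the added probe sets (0.105). With 1 of those mice left out the Klf13 change was 0.32 to 0.42.

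Klf9, a gene that glucocorticoids and thyroid hormone induce, had 9.83, 9.92 and 9.87 on the Tie2-Cre arrays, against 9.59, 9.67 and 9.64 on the no Cre arrays. The groups were apart and the spread within each was small (SD 0.048 with Tie2-Cre and 0.039 without Cre). The Klf9 change of 0.24 (SE 0.066, interval 0.09 to 0.39) fell just short of the threshold, with a limma adjusted p of 0.0541. Its adjusted p ran from 0.013 to 0.168 over the alternatives, and 3 of them took it past the threshold: a minimum mean log2 of 5 (0.04), a repeated quantile normalization (0.0316) and the trended, robust eBayes (0.013).

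Klf10 and Klf11 are the TGF-beta-inducible early genes and slow growth in several epithelia. Klf10 had 8.39, 8.40 and 7.84 on the Tie2-Cre arrays and 8.79, 8.53 and 8.61 on the no Cre arrays. All Tie2-Cre arrays lay below the no Cre arrays, and mouse 4 stood far below the other Tie2-Cre mice. The Klf10 difference was -0.43 (SE 0.15, interval -0.78 to -0.07) and did not pass (limma adjusted p 0.127), with -0.24 when Tie2-Cre mouse 4 was left out. Klf11 had 8.45, 8.38 and 8.41 on the Tie2-Cre arrays, against 8.22, 8.31 and 8.36 on the no Cre arrays, with no overlap between the groups. Its difference of 0.12 (SE 0.069, limma adjusted p 0.356) was the smallest among the members whose groups did not overlap, and was 0.077 without no Cre mouse 6.

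Tie2-Cre mouse 4 stood apart from mice 1 and 3 in several members. It was the highest of its group in 6 of the 10 and the lowest in 2, Klf5 and Klf10. Such places were not counted over all genes. The same array had a median of 10.84 over the pericyte and smooth muscle markers, against 9.75 and 9.85 for Tie2-Cre mice 1 and 3. That median lies between Cnn1 (11.63, against 10.08 and 10.14) and Myh11 (10.05, against 9.05 and 9.05). Rgs5 was level (11.78, against 11.75 and 11.78), and Pdgfrb was lowest on mouse 4 (12.02, against 12.11 and 12.06). A link of these markers to the KLF values was not tested. The SD of a KLF gene was larger with Tie2-Cre than without Cre in 8 of 10, against 55.9% of all genes, and reached 0.32 with Tie2-Cre and 0.13 without Cre. Without mouse 4 the Klf6 change was 0.56 and still passed.

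**Figure D2:**
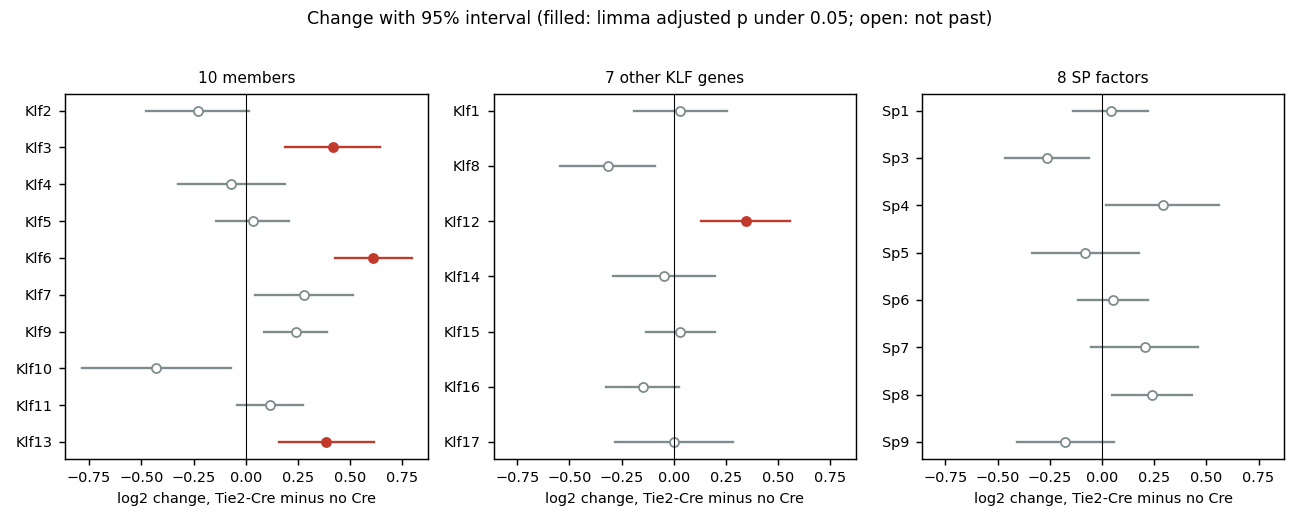
Change on the log2 scale, Tie2-Cre minus no Cre (horizontal axis), with its 95% interval from limma for the 10 members, the 7 other KLF genes on the array and 8 SP factors. Filled points passed an adjusted p of 0.05, which were Klf3, Klf6, Klf13 and Klf12, all to the right of 0.

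Of the 7 other KLF genes on the array, 1 was higher, 0 lower and 6 did not pass, with a median change of -0.001. The higher one was Klf12, a CtBP-binding relative of Klf3, at 6.74, 6.92 and 6.78 on the Tie2-Cre arrays and 6.63, 6.38 and 6.40 on the no Cre arrays. Its change of 0.34 (SE 0.092, limma adjusted p 0.0494) lost its call in 8 of 12 alternatives (adjusted p 0.0593 to 0.153), namely when any Tie2-Cre mouse, or mouse 7 or 10 of the no Cre group, was left out, with the added probe sets, with centred arrays and after a repeated quantile normalization. Klf8, the third CtBP-binding gene, had 6.59, 6.58 and 6.61 on the Tie2-Cre arrays and 7.09, 6.93 and 6.71 on the no Cre arrays. Its difference of -0.32 (SE 0.099, limma adjusted p 0.083) did not pass and ran opposite in sign to Klf3 and Klf12, but passed without no Cre mouse 10 (0.031). The metabolic factor Klf15 and the red cell factor Klf1 both differed by 0.03, Klf16 by -0.15 and Klf14 by -0.05.

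SP factors share the zinc finger fold and bind the same GC boxes. Limma called 0 of the 8 measured, with 2 higher and 1 lower at an unadjusted p under 0.05, and their median change was 0.05. Sp3 differed by -0.26 (SE 0.087, limma adjusted p 0.0983), Sp4 by 0.29, Sp8 by 0.24 and Sp7 by 0.20.

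Among the inputs that control Klf2 and Klf4 in endothelium, Mef2c rose strongly while the kinases did not pass. Of 12 genes of the MEK5-ERK5-MEF2 route and of the cerebral cavernous malformation (CCM) complex, 1 was higher, 1 lower and 10 did not pass, with a median change of 0.12. The higher count was 2 without Tie2-Cre mouse 1 or with a minimum mean log2 of 5, 3 after a repeated quantile normalization and 4 with the trended, robust eBayes. Mef2c, a MADS-box factor, had 8.47, 8.65 and 8.78 on the Tie2-Cre arrays and 6.99, 6.90 and 7.17 on the no Cre arrays. The groups were far apart, with a change of 1.61 (SE 0.10, limma adjusted p 9.06e-05) that passed in all 12 alternatives and was 1.01 with the mean of its probe sets. Heg1, the receptor that anchors the CCM complex, was lower (-0.35, SE 0.071, limma adjusted p 0.017). It did not pass when mouse 1 of the Tie2-Cre group or mouse 6 or 7 of the no Cre group was left out (adjusted p 0.0554 to 0.0676), nor with the added probe sets (0.0506) or the mean of its probe sets (-0.13, adjusted p 0.28). Mef2d (0.25) and Map3k3 (0.26), the kinase that starts the MEK5 route, did not pass.

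The Klf2 window holds the only MEF2 match among the members' windows, and it is shown because Mef2c is the input that moved most. Capitals mark the letters CTA and TAG with any 4 bases between them, a pattern that reads the same on both strands and occurs in 3.2% of the 32851 windows. The stretch is chr8:72318812-72319061 on the plus strand, and the match begins 118 bases before the start.
Klf2: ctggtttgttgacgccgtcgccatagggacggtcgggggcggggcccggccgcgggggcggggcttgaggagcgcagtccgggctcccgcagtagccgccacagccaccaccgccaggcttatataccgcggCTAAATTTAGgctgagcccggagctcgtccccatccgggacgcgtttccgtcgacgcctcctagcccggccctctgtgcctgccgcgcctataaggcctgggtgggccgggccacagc
Beside the Mef2c change of 1.61, the Klf2 difference was -0.23 and did not pass.

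Endothelial genes that Klf2 or Klf4 raises, as known mostly from human endothelial cells, held 1 higher, 0 lower and 7 other members of 8, with a median change of 0.07. The higher one was thrombomodulin (Thbd), an anticoagulant receptor, which had 11.45, 11.57 and 11.41 on the Tie2-Cre arrays and 10.28, 10.32 and 10.45 on the no Cre arrays. Its change of 1.13 (SE 0.078, limma adjusted p 0.000132) passed in all 12 alternatives. Nos3, the endothelial nitric oxide synthase and the best known Klf2 target, differed by -0.16 (SE 0.092, adjusted p 0.357). Ptgds differed by 0.30, S1pr1 by 0.27 and Cdh5 by -0.26, and none of them passed. Mean log2 intensities were 7.12 for Nos3, 6.86 for Ptgds, 7.23 for S1pr1 and 6.89 for Cdh5, beside a median of 7.12 over all genes.

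Genes that Klf2 or Klf4 lowers moved both ways, with a median of 0.09. Of 8 measured, 4 passed, 2 in each direction, beside 12.0% of all genes called in either direction. Angpt2, a destabilising ligand of Tie2, rose by 1.56 (SE 0.13, limma adjusted p 0.000351) and the adhesion molecule Sele by 0.88 (SE 0.15, adjusted p 0.00782). Sele was the dimmer of these, with means of 7.30 with Tie2-Cre and 6.42 without Cre, beside a median of 7.12 over all genes. The means of Angpt2 were 10.89 and 9.33. Tissue factor (F3), the starter of clotting, was lower (-0.50, SE 0.064, adjusted p 0.00209). Vcam1 was lower as well (-0.78, SE 0.17, adjusted p 0.0224), and did not pass when 1 of the no Cre mice (6, 7 or 10) was left out (adjusted p 0.064 to 0.0714) or with the added probe sets (0.0689).

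Of 6 genes listed here for Klf6, 3 passed, with 2 higher, 1 lower and a median of 0.19, beside 12.0% of all genes called in either direction. Whether Klf6 acts on each of the 6, Plaur included, was not tested. The urokinase receptor Plaur had 10.50, 10.45 and 10.53 on the Tie2-Cre arrays and 9.74, 9.79 and 9.99 on the no Cre arrays, a change of 0.65 (SE 0.082, limma adjusted p 0.00199). The membrane protease Mmp14 had 11.56, 11.62 and 11.61 on the Tie2-Cre arrays and 10.97, 11.03 and 11.11 on the no Cre arrays, a change of 0.56 (SE 0.068, limma adjusted p 0.00161). Both passed in all 12 alternatives, with groups well apart. Eng, which encodes the antigen of the sort, was lower (-0.30, SE 0.064, adjusted p 0.0217), and did not pass when Tie2-Cre mouse 1 or 4 or 1 of the no Cre mice was left out (adjusted p 0.0571 to 0.0827) or with the added probe sets (0.0579). Its partner receptor Acvrl1 differed by 0.30 (adjusted p 0.117).

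Klf5 targets passed in 3 of 6, all higher, beside 12.0% of all genes called in either direction. At an unadjusted limma p under 0.05, 4 of the 6 were higher and 2 lower. The median of the 6 was 0.40, while Klf5 itself differed by 0.03. The non-muscle myosin Myh10 rose by 0.97 (SE 0.16, limma adjusted p 0.00628), the cyclin Ccnd1 by 0.54 (SE 0.070) and the growth factor Pdgfa by 0.45 (SE 0.071). The smooth muscle gene Tagln differed by 0.36 (adjusted p 0.0663), Egfr by -0.46 (adjusted p 0.0762) and Fgfbp1 by -0.18 (adjusted p 0.17). Tagln is also among the pericyte and smooth muscle markers given above, and the part of such cells in these changes was not tested.

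**Figure D3:**
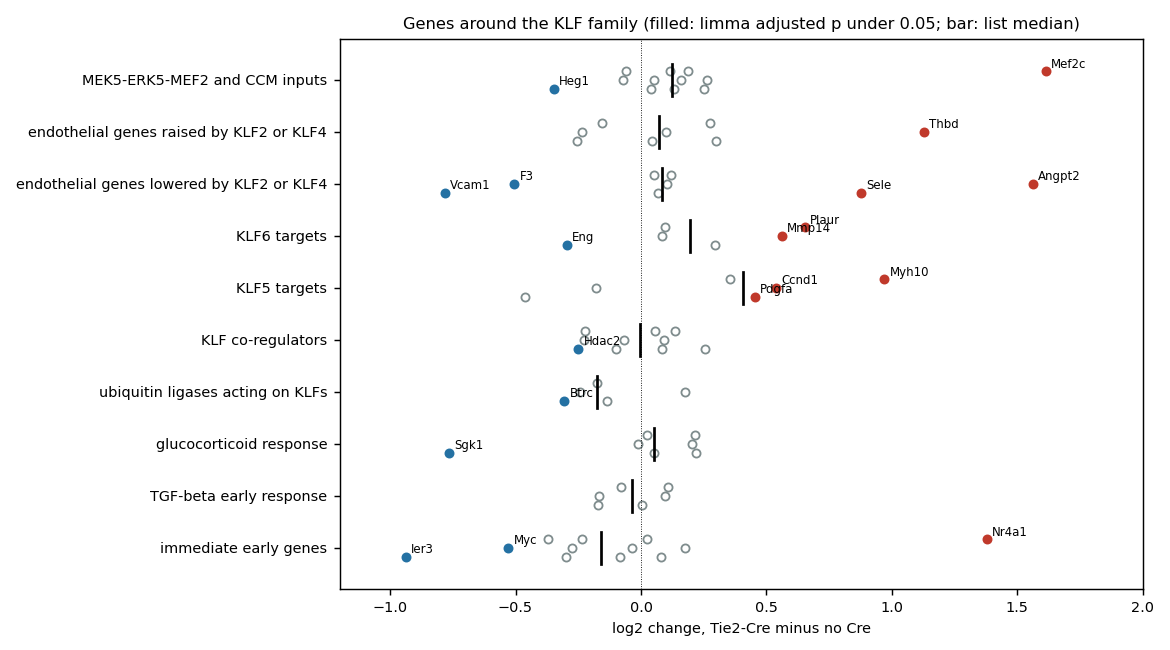
Change on the log2 scale, Tie2-Cre minus no Cre (horizontal axis), of each measured gene in 10 lists around the KLF family, with filled, named points for genes past a limma adjusted p of 0.05 and a bar at each list's median. Mef2c (1.61), Angpt2 (1.56) and Nr4a1 (1.38) lie farthest right, and Ier3 (-0.94) lies farthest left.

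Among partners and turnover enzymes of KLF proteins, few genes passed. Of 10 co-regulators, 0 were higher and 1 was lower, Hdac2 (-0.25, SE 0.061, limma adjusted p 0.035), which did not pass when any of the 6 mice was left out (adjusted p 0.0744 to 0.11) or with the added probe sets (0.0814). Ctbp1, the partner of Klf3, differed by 0.25 (adjusted p 0.0743) and Sin3a by -0.22 (adjusted p 0.104). Of 5 ubiquitin ligases that act on KLF proteins, 1 was lower, Btrc (-0.31, SE 0.075, adjusted p 0.0361), which likewise did not pass when any of the 6 mice was left out (adjusted p 0.0545 to 0.122) or with the added probe sets (0.0885). Wwp1, the ligase of Klf2 and Klf5, differed by -0.14.

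No stimulus of KLF genes was measured, and genes that respond to such stimuli are given here as lists. Of 7 glucocorticoid-responsive genes, 1 was lower, the kinase Sgk1 (-0.76, SE 0.092, limma adjusted p 0.00161). The other 6 did not pass, among them Per1 (0.20), Fkbp5 (0.22) and Tsc22d3 (0.22). In this list 3 genes were higher and 1 lower at an unadjusted limma p under 0.05. Limma called 0 of 6 genes of the early TGF-beta response, with 0 higher and 1 lower at an unadjusted p under 0.05. The lowest p in that list was that of Skil (-0.17, adjusted p 0.187). Of 12 immediate early genes, 1 was higher and 2 were lower past the threshold, and 1 was higher and 5 lower at an unadjusted limma p under 0.05. The nuclear receptor Nr4a1 rose by 1.38 (SE 0.16, adjusted p 0.0013), while Ier3 (-0.94, SE 0.11) and Myc (-0.53, SE 0.076) were lower, and Egr2 differed by -0.37 (adjusted p 0.0514). Without Tie2-Cre mouse 1 the count lower past the threshold was 4, with Egr2 (-0.47, adjusted p 0.0189) and Egr3 (-0.37, adjusted p 0.0443). Egr3 was named after its values were seen.

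The genes most like Klf6 by Pearson's r of log2 values over the 6 arrays were Mamdc4 (r 0.999), the membrane repair gene Dysf (0.997) and Otud6a (0.997). All pairs share the step between the groups, which sets most of such an r over 6 arrays. Dysf changed by 0.56 (SE 0.072, limma adjusted p 0.00214), Mamdc4 by 0.24 (SE 0.064, adjusted p 0.045) and Otud6a by 0.16 (adjusted p 0.149).

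**Figure D4:**
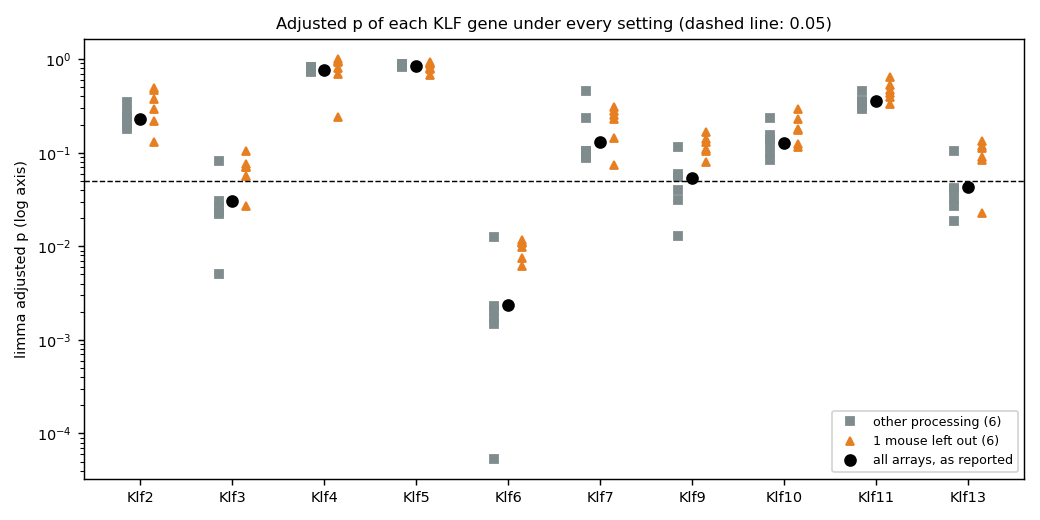
Limma adjusted p of each KLF gene (vertical log axis) with all arrays (black), under 6 other processing settings (grey squares) and with each of the 6 mice left out (orange triangles). Klf6 stays below the dashed line at 0.05 throughout, and Klf3, Klf13 and Klf9 lie on both sides of it.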

How the data were processed

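RNA of 6 mice was read on 1 array each, 3 with Tie2-Cre and 3 without Cre, and mice were grouped by the titles in the labels. The deposited table holds intensities, which are linear and run from 5.13 to 17822. Per the labels, the authors derived them by RMA, and the submitters' processing notes name Affymetrix Expression Console. RMA includes background correction and quantile normalization, the second of which acts on probes before probe sets are summarised. A repeated quantile normalization of the probe set values still moved the Klf6 change, from 0.61 to 0.64. The program's version and a genome build are not given in the sources used here, and the number of arrays limits the precision.

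From these, log2 values were taken. Of 41345 probe sets, 23521 had exactly 1 gene symbol, 1814 several, and 16010 were unlisted. The brightest probe set per symbol gave 22180 genes. All 10 members matched a RefSeq gene. Groups were compared with limma 3.58.1 in R 4.3.3 (lmFit, eBayes, two-sided), with Benjamini-Hochberg adjustment over all genes and a threshold of 0.05, and data.table (version 1.17.8) for reading. A change is Tie2-Cre minus no Cre on the log2 scale, and its SE is limma's. On simulated data of the same 22180 genes, 49 of 67 shifts of 0.5 log2, 67 of 67 of 1 and 66 of 66 of 2 were recovered, with 4 false calls. The simulation used independent normal noise and shifted far fewer genes than were called in the data. It held no shift under 0.5 log2, so recovery of changes as small as those of Klf3, Klf13 and Klf9 was not tested.

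The members and gene lists were chosen with earlier results of these data known. The rule for named genes took all members, up to 4 genes of each list with the smallest p, the 3 genes most like the member with the largest rise and with the largest fall past the threshold (no member fell past it), Pfn1 and Xist. Klf1, Klf15, Nos3, Egfr, Fgfbp1, Dcn, Cnn1, Myh11, Olig2 and Aqp4 were added with their values known. The alternatives tried were: the 17824 other probe sets added, a minimum mean log2 of 5, quantile normalization again, centred arrays, the mean of a gene's probe sets, eBayes with trend and robust, and each mouse left out.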

Additional observations from a re-analysis of the deposited data

How the results depend on the processing

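Over the 10 members, 12 alternatives gave 120 values, of which 103 kept direction and side of the threshold, 12 lost the call (6 of Klf3 and 6 of Klf13), 3 gained it (Klf9) and 2 changed sign. The sign changes were Klf4, at 0.0028 without Tie2-Cre mouse 1 (-0.187 to 0.0028 with a mouse left out), and Klf5, at -0.0275 without no Cre mouse 6 (-0.0275 to 0.076), neither of them called in any alternative. The number of members called higher, 3 with all arrays, was 1 with the probe sets that lack 1 symbol added and 1 to 2 with a mouse left out, where fewer arrays enter the fit, and 4 under the 3 settings that Klf9 passed. With a mouse left out, 634 to 903 of all genes were called higher and 910 to 1253 lower, against 1061 and 1591 with all arrays. Of the other genes named as not past the threshold, Egr2 passed in 4 alternatives, Mef2d and Map3k3 in 3 each, Ctbp1 in 2, and Sp3, Per1, Tagln, Egfr and Klf8 in 1 each. The count of members called lower was 0 by limma in every alternative. The Pfn1 change stayed between 0.02 and 0.08 and never passed. The median change of all genes stayed within -0.0099 to 0.0026, a value that quantile normalization and centring hold near 0 by construction. With the trended, robust eBayes 2 co-regulators were lower, against 1. No background level was measured, so how far low signal limits the changes of dim genes was not tested. No paired analysis was possible because the mouse numbers differ between the groups.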
